A study of Mus musculus with 8 samples.

Results

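Hair follicle keratins and trichohyalin were examined as a readout of hair growth in 8 single-cell libraries of mouse dorsal skin. The set was defined by gene symbol and comprised Krt25, Krt27, Krt28, Krt71, Krt73, Krt75, Krt35, Krt85 and Tchh. Of these 9 genes, 8 were measured among the 31053 genes of the count tables, and Krt85 was not analysed here. The libraries came from 4 mm skin biopsies of female BALB/c mice aged 14 to 16 weeks. For 4 libraries the skin had been injected with PBMCsec, the secretome of irradiated human peripheral blood mononuclear cells, and for 4 with vehicle. The labels number the libraries 1 to 4 in each group, and whether each library is a separate animal is not given. Neither are wounding, time point or the vehicle solution, so the comparison was by treatment alone.

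Hair grows from matrix keratinocytes at the base of the follicle, which divide during the growth phase and then differentiate into concentric layers. The inner root sheath moulds the growing shaft and builds filaments from the type I keratins Krt25, Krt27 and Krt28, paired with the type II keratins Krt71 and Krt73. Trichohyalin, encoded by Tchh, fills the granules of the inner root sheath and of the medulla, where it is modified by peptidylarginine deiminases and cross-linked by transglutaminases such as Tgm3. Krt75 is a type II keratin of the companion layer, the cell sheet between the inner and outer root sheath, and is also known from the medulla. Krt35 is a type I keratin of the hair shaft and an early product of cells entering the shaft. Because these genes are made by follicles in growth and not by resting follicles, their transcripts are commonly used to follow the hair cycle.

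The genes lie in 3 places of the mouse genome (mm10, positions from GENCODE M21). The type I genes are on chromosome 11, with Krt25 at 99315516 to 99322951, Krt27 at 99345565 to 99351104, Krt28 at 99364872 to 99374903 and Krt35 at 100092193 to 100096241, all on the minus strand. The type II genes are on chromosome 15, with Krt75 at 101563345 to 101573904, Krt71 at 101733949 to 101743109 and Krt73 at 101793308 to 101802346, likewise on the minus strand. Tchh is on the plus strand of chromosome 3 at 93442330 to 93449077. Sequences upstream of the start were matched by symbol for 7 of the genes (RefSeq, GRCm38.p6). Those of Krt71 and Krt73 are shown because they share the longest run, that of Krt25 because the gene was detected in the most cells, and that of Krt75 because it held none of the 3 motifs. Each is the 250 bases before the annotated start, 5′ to 3′ on the strand of the gene, at chr15:101743098-101743347 for Krt71, chr15:101802361-101802610 for Krt73, chr11:99322952-99323201 for Krt25 and chr15:101573905-101574154 for Krt75. Capitals mark 3 motifs searched on both strands. The first, AGATAA, is bound by GATA factors such as Gata3. The second, TAATTA, is a core of homeodomain factors. The third, TATAAA, is the TATA box. In Krt71 and Krt73 capitals also mark the longest run that any pair of the 7 sequences shared in the same orientation.
Krt71: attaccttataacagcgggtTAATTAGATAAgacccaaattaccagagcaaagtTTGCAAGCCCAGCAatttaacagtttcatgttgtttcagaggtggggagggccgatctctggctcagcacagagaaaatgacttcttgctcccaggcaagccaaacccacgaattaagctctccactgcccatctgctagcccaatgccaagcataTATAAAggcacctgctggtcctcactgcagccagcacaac
Krt73: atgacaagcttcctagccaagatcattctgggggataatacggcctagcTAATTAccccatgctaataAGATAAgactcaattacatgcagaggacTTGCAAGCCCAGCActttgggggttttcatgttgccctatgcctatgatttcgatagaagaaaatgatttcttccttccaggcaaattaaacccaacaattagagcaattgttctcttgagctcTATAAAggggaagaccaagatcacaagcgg
Krt25: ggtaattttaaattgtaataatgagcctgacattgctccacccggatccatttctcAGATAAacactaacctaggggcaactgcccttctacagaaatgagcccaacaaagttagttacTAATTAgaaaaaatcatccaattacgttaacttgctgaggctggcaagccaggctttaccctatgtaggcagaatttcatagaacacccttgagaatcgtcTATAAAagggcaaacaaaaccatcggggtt
Krt75: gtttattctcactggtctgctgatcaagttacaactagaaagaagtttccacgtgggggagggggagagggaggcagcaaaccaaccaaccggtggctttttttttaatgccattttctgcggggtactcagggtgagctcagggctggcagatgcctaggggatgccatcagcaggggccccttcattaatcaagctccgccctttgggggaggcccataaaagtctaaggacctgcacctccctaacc
The run shared by Krt71 and Krt73, TTGCAAGCCCAGCA, was 14 bases long and began 196 bases before the start of Krt71 and 154 bases before that of Krt73. In Krt71, TAATTA and AGATAA shared 1 base. AGATAA was found upstream of 5 of the 7 genes (Tchh, Krt25, Krt27, Krt71 and Krt73), compared with 9.99% of all 32851 sequences of this length in the table. TAATTA was found upstream of 4 of 7 (Krt25, Krt28, Krt71 and Krt73), compared with 4.84% of all, and TATAAA upstream of 5 of 7 (Krt25, Krt27, Krt28, Krt71 and Krt73), compared with 12.4%. The motifs were chosen after the sequences had been seen, and a match describes letters only, not a bound site.

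The filter of the study required 500 to 4000 genes per cell, no more than 20000 UMIs and a mitochondrial share of 5% or less. It kept 6150 of 26231 barcodes, between 151 and 1659 per library. Total counts over the kept cells ranged from 1105139 to 12669272 UMIs per library, and vehicle 1 was the smallest. A relaxed filter with at least 500 genes, at most 20% mitochondrial counts and no upper limits kept 18709 cells, between 859 and 4321 per library. The libraries numbered 1 and 2 held fewer cells in both groups. Across libraries, 78 barcode sequences occurred more than once, 4 of them among kept cells. The libraries are treated as replicates of their group, and levels are given as CPM, the UMIs of a gene scaled to a total of 1000000, without scaling by gene length because 3′ libraries count 1 tag per molecule. Keratins are paralogs, and whether reads were split between them was not tested.

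Expression of the set was concentrated in a single cluster. Clusters were built with the 8 genes left out of the features, and 1 of 35 clusters carried markers of the hair lineage (Msx2, Hoxc13, Lef1, Dlx3, Mki67 and Top2a), with 285 kept cells from all 8 libraries. This cluster held 89.7% of the 28575 UMIs of the set. In it, Tchh reached 2796 CPM, Krt71 2698 CPM and Krt25 2645 CPM, whereas Krt28 (842 CPM), Krt35 (683 CPM), Krt27 (604 CPM), Krt73 (437 CPM) and Krt75 (353 CPM) were lower. In the other 34 clusters the median level was 9.24 CPM for Krt25, 8.53 CPM for Krt71 and 13.5 CPM for Tchh. The highest level outside the cluster was 55.4 CPM for Krt71 and 46.5 CPM for Tchh. These contrasts describe the clusters and were not tested, because clusters are not independent samples.

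The relaxed filter gave a finer view of the lineage. Placed by nearest centroid, 2074 of the 18709 cells fell to the hair lineage, and they were divided into 18 sub-groups, again without the 8 genes. Doublets were scored only among cells kept by the filter of the study. Whether relaxed-filter cells with genes of different layers were doublets was therefore not tested. The sub-groups are called by their leading genes outside the set. Of these, 3 were led by genes of other cells, namely red blood cell genes (29 cells), lipid genes of the sebaceous gland (27 cells) and Spp1 with Krt6a (33 cells). In the red cell sub-group, with a median of 2197 UMIs per cell, Krt25 was at 1070.0 CPM. In the heat map of levels by sub-group, the inner root sheath keratins, Krt75 and Krt35 peaked in different rows, but the rows were not exclusive. In the Tm4sf1 row, with the highest Krt75, Krt71 was at 2648 CPM and Tchh at 110 CPM. Tchh was high in the Crnn row of the inner root sheath keratins and in the Sprr1b row, which also had Krt75.

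**Figure D1:**
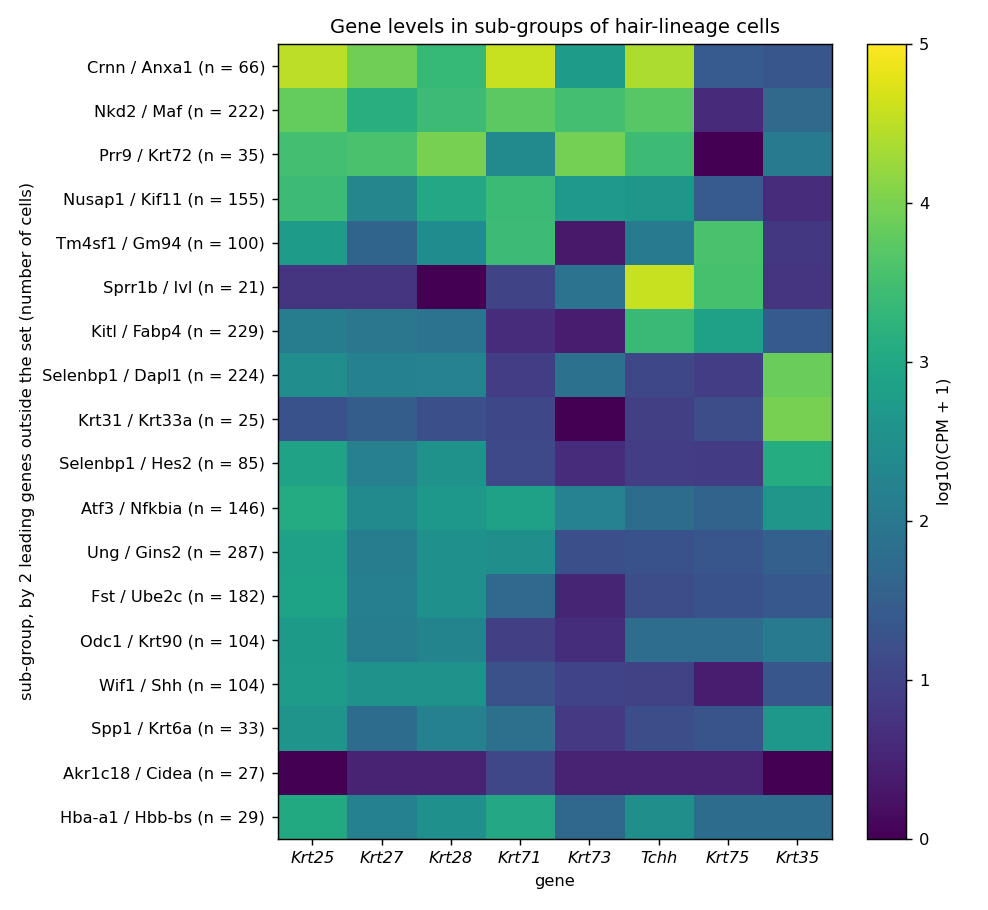
Level of each gene (columns, log10 of CPM + 1) in 18 sub-groups of hair-lineage cells under the relaxed filter (rows, named by 2 leading genes outside the set, with the number of cells). Krt25, Krt27 and Krt71 peaked in the Crnn row, and Tchh in the Sprr1b row (37358 CPM) and then the Crnn row (24457 CPM). Krt75 peaked in the Tm4sf1 and Sprr1b rows, and Krt35 in the Krt31 row and the Selenbp1 and Dapl1 row.

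Inner root sheath keratins were highest in 3 sub-groups with different proportions of the genes. In the largest, led by Nkd2 and Maf (222 cells), Krt25 reached 6692 CPM, Krt71 5438 CPM, Tchh 5025 CPM, Krt73 3152 CPM, Krt28 2681 CPM and Krt27 1442 CPM. This sub-group held 51.8% of the Krt73 UMIs of the lineage, and Gata3, a transcription factor of the inner root sheath, was among its 10 leading genes. With 2 fixed sheath markers (Gata3 and Padi3) it stayed unnamed, because at least 3 were needed. A smaller sub-group, led by Crnn and Anxa1 (66 cells), showed far higher Krt71 (38133 CPM), Krt25 (31130 CPM), Tchh (24457 CPM) and Krt27 (8204 CPM), with less Krt73 (545 CPM). By the fixed markers this sub-group was suprabasal epidermis-like (Sbsn, Dsg1a and Calm4), with 2 markers of the inner root sheath. Its 66 cells held 57.4% of Krt71, 46.6% of Tchh, 45.9% of Krt27 and 43.7% of Krt25 UMIs of the lineage. The third, led by Prr9 and Krt72 (35 cells), was inner root sheath-like by 4 markers and showed the opposite proportions. Krt28 (9585 CPM) and Krt73 (9070 CPM) were its highest genes of the set, Krt27 was at 3604 CPM, and Krt71 was at 244 CPM. Krt72, which led this sub-group, encodes another type II keratin of the inner root sheath.

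The keratin levels within these sub-groups were compared between libraries with at least 5 cells. In the Nkd2 and Maf sub-group, Krt71 was at 2352, 5484 and 5854 CPM in PBMCsec libraries 1, 3 and 4, and at 3730, 5902 and 5234 CPM in vehicle libraries 2, 3 and 4. The ranges overlapped, and the other 2 libraries had 1 such cell each. Tchh varied far more in the same cells, at 1014, 405.5 and 5046 CPM after PBMCsec and at 1873, 11852 and 3211 CPM after vehicle. In the Crnn and Anxa1 sub-group, Krt71 was at 40879 and 46625 CPM in PBMCsec 3 and 4, and at 30348 and 36054 CPM in vehicle 3 and 4. Here both PBMCsec libraries were above both vehicle libraries, as they were in Krt25, at 36546 and 38515 against 24707 and 28240 CPM. The same order held for Krt27 (9350 and 11034 against 6154 and 6869 CPM) and Tchh (31632 and 27093 against 24249 and 21624 CPM). In Krt73 the groups overlapped. Krt28 was the other way round, at 1810.0 and 1720 CPM in PBMCsec 3 and 4 and at 2748 CPM in both vehicle 3 and vehicle 4. Of the 4359 Krt71 UMIs of this sub-group in PBMCsec 3, 1 cell held 2796, and it also had 2892 of the 3373 Tchh UMIs. With 2 libraries a side no test was made. The share of all genes that separate the groups in this sub-group was not counted, so the orders above are a description only. The sub-group held 10, 19, 14 and 21 cells in these 4 libraries, 2 cells in PBMCsec 1 and none in the other 3.

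Sub-groups led by cell division and replication genes also carried part of the set. In the sub-group led by the cell division genes Nusap1 and Kif11 (155 cells), Krt25 was at 2706 CPM and Krt71 at 2598 CPM, while Tchh was at 442 CPM. In the sub-group led by the replication genes Ung and Gins2 (287 cells), Krt25 was at 742 CPM, Krt28 at 329 CPM and Krt71 at 305 CPM. The sub-group led by Wif1 and Shh, a signal of the matrix (104 cells), had 569 CPM of Krt25, 374 CPM of Krt28 and 16.1 CPM of Krt71. Krt25 was thus the most widely detected gene of the set. At least 5 Krt25 UMIs were present in 1227 of the 2074 cells, compared with 936 cells for Krt28, 551 for Krt27, 538 for Krt71, 352 for Krt35, 307 for Krt73, 253 for Tchh and 225 for Krt75.

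Krt35 was largely separate from Krt71, Krt73 and Tchh. Some of its cells also had Krt25 or Krt28, but a smaller share than in the lineage as a whole. The hair shaft-like sub-group led by Selenbp1 and Dapl1 (224 cells, with S100a3, Krt32, Krt82 and Krt86 among its 10 leading genes) held 69.8% of the Krt35 UMIs of the lineage, at 7075 CPM. A smaller hair shaft-like sub-group, led by Krt31 and Krt33a and by keratin-associated protein genes (25 cells), had Krt35 at 9410 CPM. In the first, Krt35 was at 8023, 6732 and 7572 CPM in PBMCsec libraries 1, 3 and 4 and at 6523, 7114 and 6779 CPM in vehicle libraries 2, 3 and 4. These values lay close together, and the groups overlapped. Krt71 was at 7.23 CPM and Tchh at 11.1 CPM in this sub-group. Of the 352 cells with at least 5 Krt35 UMIs, 5 had as many of Krt71, 6 of Krt73 and 1 of Tchh. More of them had at least 5 of Krt25 (138 cells, 39.2%), of Krt28 (82, 23.3%) or of Krt27 (51, 14.5%). These shares were below those of the lineage. Among all 2074 hair-lineage cells, 1227 had as many of Krt25, 45.1% of Krt28 and 26.6% of Krt27. In the sub-group led by Selenbp1 and Hes2 (85 cells), Krt35 was at 1219 CPM, Krt25 at 771 CPM and Krt28 at 349 CPM. There 63.5% of cells had at least 5 Krt35 UMIs, 68.2% as many of Krt25 and 50.6% as many of Krt28.

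Tchh occurred with 2 different partners. Of 253 hair-lineage cells with at least 5 Tchh UMIs, 143 had at least 5 Krt71 UMIs but not Krt75, 75 had Krt75 but not Krt71, 3 had both and 32 had neither. The cells with Krt75 belonged mainly to the sub-group led by Kitl and Fabp4, with Foxq1 and Prdm1 among its leading genes (229 cells, Tchh at 2335 CPM, Krt75 at 729 CPM and Krt71 at 3.37 CPM), and to the sub-group led by Sprr1b and Ivl (21 cells, Tchh at 37358 CPM, Krt75 at 3504 CPM and Krt71 at 9.73 CPM). Both carried Tgm3, Padi3 and Tchhl1, which are on the fixed marker list of the inner root sheath. The Kitl sub-group also carried 2 companion layer and 3 basal epidermis markers, and the Sprr1b sub-group 3 and 2. In the Sprr1b sub-group the median mitochondrial share was 10.8%. Keratins of the sheath were low in both, with Krt25 at 129 and 4.87 CPM and Krt73 at 1.50 and 77.9 CPM. Whether these cells are of the sheath, of the medulla or of the companion layer was not tested. The division was seen in each of the 4 libraries with more than 20 such cells. Krt71 without Krt75 was found in 14 of 26 cells in PBMCsec 3, 47 of 68 in PBMCsec 4, 27 of 61 in vehicle 3 and 47 of 79 in vehicle 4. Krt75 without Krt71 was found in 8, 15, 21 and 25 of these cells, and cells with both numbered 0, 2, 0 and 0.

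**Figure D2:**
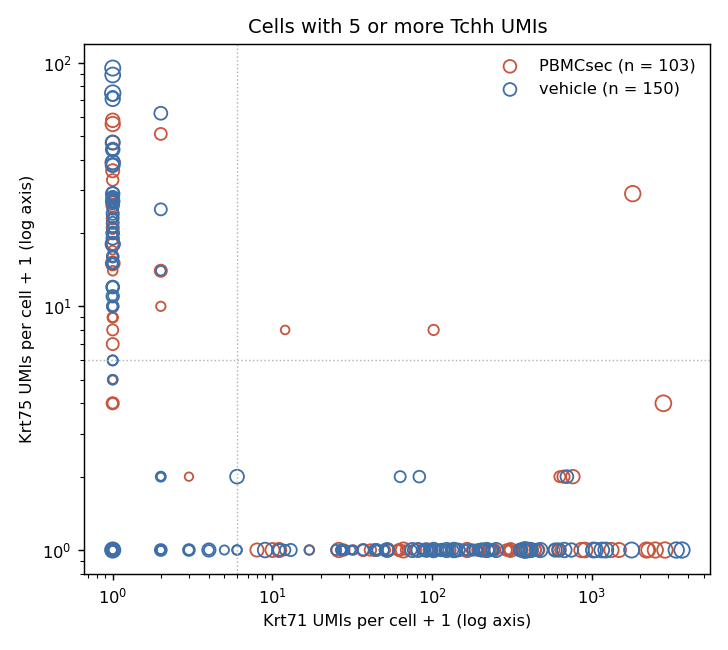
Krt71 UMIs (x axis) and Krt75 UMIs (y axis) in the 253 hair-lineage cells with at least 5 Tchh UMIs, each plus 1 on log axes, with circle size growing with the Tchh count and dotted lines at 5 UMIs. Cells of both groups lay along one axis or the other, and 3 cells passed both lines.

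Krt75 was the gene of the set with the largest share of its UMIs outside the hair lineage. Under the relaxed filter 54.2% of its UMIs were in hair-lineage cells, compared with 83.8% for Tchh, 86.4% for Krt27 and 89.8% to 97.4% for the other 5 genes. Within the lineage, 64.9% of its UMIs were in the sub-group led by Tm4sf1 and Gm94 (100 cells), with Krt17 and Wnt11 among the leading genes, where Krt75 was at 3704 CPM and Krt71 at 2648 CPM. By the fixed markers this sub-group had 3 of the upper follicle (Krt17, Lrig1 and Plet1) and 3 of the suprabasal epidermis. Most Krt75 UMIs outside the lineage were in 2 clusters that were companion layer-like by their markers (1170 cells, 7127 Krt75 UMIs). There the gene was carried by few cells: 29 cells with at least 5 UMIs held 7025 of the 7127. These 29 cells came from all 8 libraries, had a median of 26077 UMIs and showed 7812 CPM of Krt75, 24647 CPM of Krt17 and 109 CPM of Krt71. Among the other 1141 cells Krt17 was at 11194 CPM and Krt75 at 8.81 CPM. Other keratins differed in both directions. Krt6a, a companion layer keratin, was lower in the 29 cells, at 1750 against 2285 CPM. So were Krt5 (2988 against 5308 CPM) and Krt14 (2151 against 10652 CPM). Krt16 was higher, at 663 against 267 CPM. Of the 29 cells, 3 passed the filter of the study. Krt75 in companion layer-like cells was at 562, 498, 448 and 904 CPM in PBMCsec libraries 1 to 4 and at 345, 445, 482 and 580 CPM in vehicle libraries 1 to 4. The means were 603 ± 206 (SD, n = 4) and 463 ± 97.1 CPM, a difference within the spread between libraries (exact two-sided permutation test, p = 0.286). These levels reflect few cells. Those with at least 5 Krt75 UMIs numbered 4, 2, 1 and 7 in PBMCsec libraries 1 to 4 and 1, 1, 9 and 4 in vehicle libraries 1 to 4. A single cell held 355 of 367 UMIs in PBMCsec 3, 236 of 237 in vehicle 1 and 554 of 562 in vehicle 2. Under the relaxed filter an upper follicle-like cluster (373 cells) held 10.3% of Krt27, 9.21% of Tchh, 6.90% of Krt71 and 5.84% of Krt25 UMIs. In it 5 cells had at least 5 Tchh UMIs, and 4 cells had as many of Krt25, 4 of Krt27 and 4 of Krt71. The part of the Krt25 UMIs outside the hair lineage differed between libraries. The lineage held 31294 of 37292 in PBMCsec 4 and 23889 of 24346 in vehicle 4. It held 9901 of 10119 in PBMCsec 3 and 16903 of 18026 in vehicle 3.

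The measured type I keratins of the inner root sheath gave more UMIs than the measured type II keratins. Krt74, a further type II keratin of the sheath, was not measured and is missing from the sums. Over all hair-lineage cells, Krt25, Krt26, Krt27 and Krt28 together gave 135785 UMIs, and Krt71, Krt72 and Krt73 gave 99659, a ratio of 1.36. The ratio was 1.36 and 1.28 in PBMCsec 3 and 4 and 1.50 and 1.33 in vehicle 3 and 4, where 289 to 601 hair-lineage cells were measured. In libraries with fewer cells it was 1.40 (PBMCsec 1), 2.80 (PBMCsec 2), 2.08 (vehicle 1) and 2.15 (vehicle 2). Krt25 had 85630 and Krt71 79833 UMIs, a ratio of 1.07. By library this ratio was 1.26, 1.52, 1.15 and 1.01 in PBMCsec 1 to 4 and 7.7, 2.05, 1.20 and 1.01 in vehicle 1 to 4, and vehicle 1 had 10 Krt71 UMIs.

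The transcripts were carried by few cells. Under the relaxed filter, 50% of the Tchh UMIs came from 23 of 18709 cells, 50% of Krt75 from 24, of Krt71 from 29, of Krt27 from 31, of Krt35 from 48, of Krt73 from 54, of Krt25 from 58 and of Krt28 from 129. Under the filter of the study the numbers were smaller still, with 3 cells for Tchh, 7 each for Krt71, Krt27 and Krt73, 8 for Krt35, 9 for Krt75, 11 for Krt25 and 22 for Krt28. In vehicle 3, 1 kept cell with 2126 Tchh UMIs accounted for 42.6% of the Tchh count of the library, and in vehicle 4, 1 cell with 602 UMIs for 34.8%. In PBMCsec 3 and 4 no kept cell had 100 or more Tchh UMIs, whereas 5 and 30 cells of the relaxed filter did. A level per library under the filter of the study therefore rests on a handful of cells for these genes. Single cells also weighed under the relaxed filter. There 1 cell with 2892 Tchh UMIs held 57.4% of the Tchh count of PBMCsec 3. The top cell held 14.1% in PBMCsec 4, 14.2% in vehicle 3 and 10.5% in vehicle 4.

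Levels per library followed the library number in both groups. Over cells kept by the filter of the study, Krt25 was at 9.01, 10.7, 50.8 and 77.2 CPM in PBMCsec libraries 1 to 4, and at 0, 39.5, 269 and 266 CPM in vehicle libraries 1 to 4. Krt71 was at 9.18, 8.0, 54.6 and 61.9 CPM after PBMCsec and at 0.905, 8.72, 290.5 and 280.5 CPM after vehicle. Libraries 3 and 4 were higher than libraries 1 and 2 in both groups. Tchh was at 9.34, 15.1, 28.9 and 25.3 CPM after PBMCsec and at 7.24, 12.2, 394 and 243 CPM after vehicle. Krt35 was at 1.17, 0, 38.9 and 68.4 CPM after PBMCsec and at 0, 0.581, 57.3 and 33.9 CPM after vehicle. For Krt35 alone among these 4 genes, PBMCsec 4 was the highest library. Krt75 was at 0.834, 0, 4.17 and 8.35 CPM after PBMCsec and at 0, 16.3, 56.5 and 20.9 CPM after vehicle. Krt73 reached at most 35.7 and 37.9 CPM in the 2 groups, Krt27 25.8 and 66.3 CPM, and Krt28 42.0 and 92.3 CPM. In vehicle 1, with 1105139 UMIs, 6 of the 8 genes had no UMI, which allows up to 3 counts or 2.71 CPM, a limit that covers counting error only. For 7 of the 8 genes every library numbered 3 or 4 lay above every library numbered 1 or 2, as did 10.2% of the 13182 genes tested. The exception was Krt75. What the numbers stand for is not given, and numbers, cell counts and depth cannot be told apart. In such sums, fewer cells of a type and less RNA per cell cannot be told apart either.

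**Figure D3:**
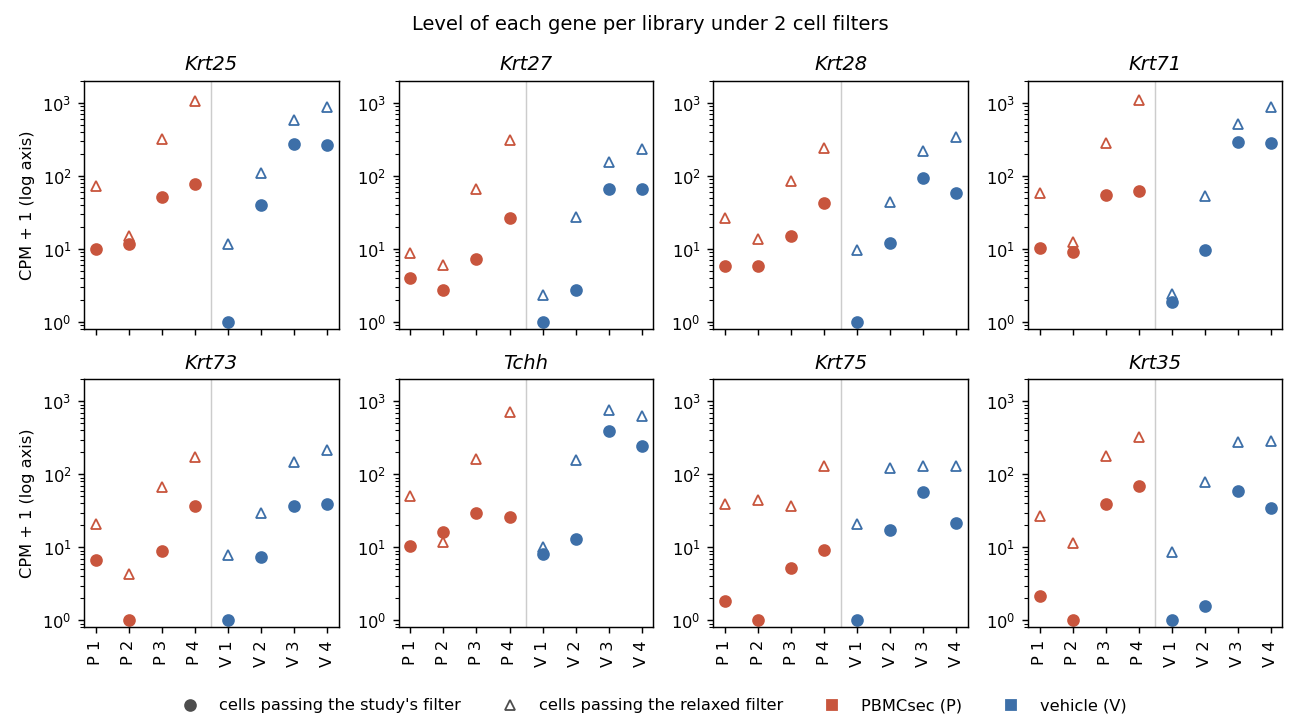
Level of each gene (CPM + 1, log axis) in PBMCsec libraries 1 to 4 (P, red) and vehicle libraries 1 to 4 (V, blue), over cells kept by the filter of the study (filled circles) and by the relaxed filter (open triangles). Libraries 3 and 4 were higher than 1 and 2 in both groups for each gene but Krt75, and in PBMCsec 4 Krt25 rose from 77.2 to 1081 CPM between the filters.

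As a fold of the level under the filter of the study, the relaxed filter raised Krt25, Krt71 and Tchh more in PBMCsec 3 and 4 than in vehicle 3 and 4. In CPM, Krt25 and Tchh rose less in PBMCsec 3 than in vehicle 3. Over its cells Krt25 was at 71.5, 14.2, 320 and 1081 CPM after PBMCsec and at 10.7, 107, 585 and 885 CPM after vehicle. Krt71 was at 57.6, 11.5, 279 and 1091 CPM after PBMCsec and at 1.41, 52.2, 508 and 881 CPM after vehicle. PBMCsec 4 was now the highest library for both genes. Tchh was at 49.1, 10.9, 159 and 723 CPM after PBMCsec and at 9.0, 158, 773 and 634 CPM after vehicle. For Krt25, vehicle 3 exceeded PBMCsec 3 by 5.30-fold under the filter of the study and by 1.83-fold under the relaxed one, and the ratio of vehicle 4 to PBMCsec 4 was 3.44 and 0.819, so that vehicle 4 was the lower of the pair under the relaxed filter. For Tchh these ratios went from 13.6 to 4.85 for number 3 and from 9.59 to 0.877 for number 4. For 7 of the 8 genes the libraries numbered 3 and 4 were again above those numbered 1 and 2, as were 12.1% of all tested genes. For none of the 8 did every PBMCsec library lie below every vehicle library, a pattern of 1.12% of all genes under the filter of the study and of 2.25% under the relaxed one.

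Most transcripts of the set were in cells that the filter of the study removed. Of 411524 UMIs of the 8 genes in all barcodes, the kept cells held 6.94%, although they held 23.8% of all UMIs. By gene the retained part was between 4.56% (Krt35) and 8.85% (Tchh). By library it was 16.96% in vehicle 3, 6.82% in vehicle 4, 6.21% in PBMCsec 3 and 1.59% in PBMCsec 4. Hair-lineage cells passed less often than other cells in each of the 8 libraries. Of 2074 relaxed-filter cells of the lineage 248 passed (11.96%), and of 16635 other cells 5902 passed (35.5%). Compared with other epithelial cells only (29.2% passed), hair-lineage cells passed less often in 6 libraries and more often in PBMCsec 2 (4 of 21 against 48 of 474 cells) and vehicle 1 (1 of 8 against 20 of 349 cells). In the lineage 68.9% of cells were over the mitochondrial limit and 51.5% over the upper limit of genes or UMIs, compared with 51.4% and 18.0% of other cells. Hair-lineage cells were rich in RNA, with a median of 16790 UMIs and 4047 genes, against 7537 UMIs and 2610 genes in other cells. Of 167 hair-lineage cells with at least 100 Krt71 UMIs, 17 passed, 99 were over the mitochondrial limit and 116 over an upper limit. With the mitochondrial limit alone, vehicle 3 exceeded PBMCsec 3 in Krt25 by 1.59-fold, and with the upper limits alone by 3.08-fold. For number 4 the ratio was 0.830 and 0.883. The genes differed in this. With the mitochondrial limit alone the ratio for number 4 was 3.17 for Krt73, 2.72 for Krt28, 2.28 for Krt35, 1.19 for Krt75 and 1.15 for Tchh. It was 0.810 for Krt71 and 0.773 for Krt27. With the upper limits alone it was 1.30 for Krt28, 1.28 for Krt75 and 1.23 for Krt73, and between 0.680 and 0.946 for the other genes.

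**Figure D4:**
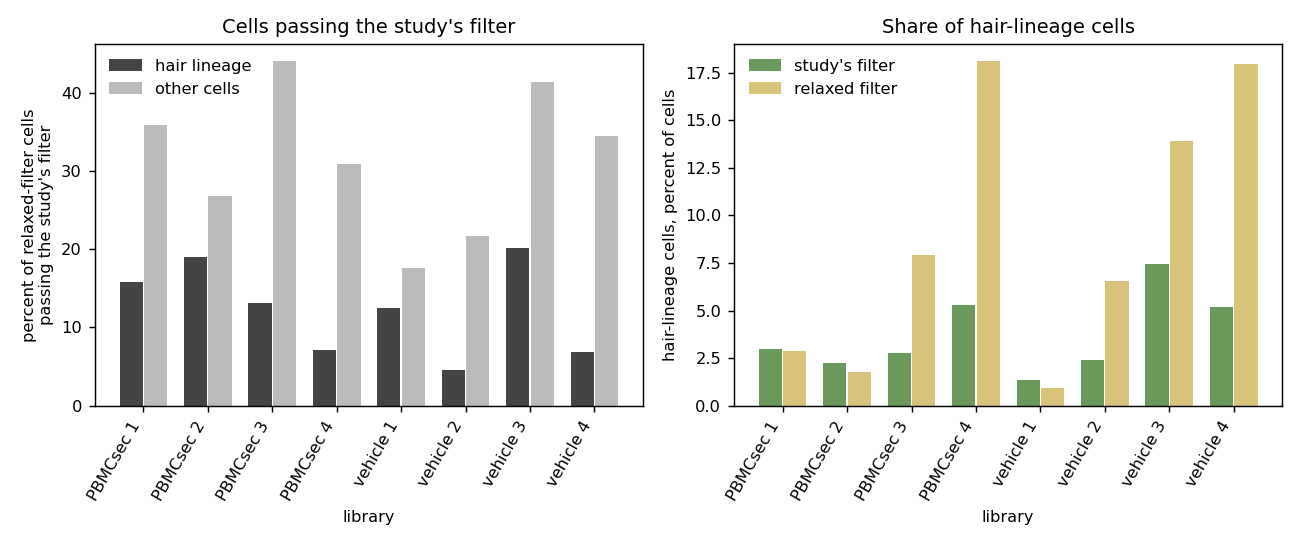
Left, percent of relaxed-filter cells that also passed the filter of the study, for hair-lineage cells (dark bars) and other cells (light bars) in each library. Right, hair-lineage cells as a percent of all cells under each filter. Hair-lineage cells passed less often than other cells in all 8 libraries, and the share of PBMCsec 4 and vehicle 4 rose to 18.1% and 17.98% under the relaxed filter.

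Hair-lineage cells made up 3.00%, 2.24%, 2.77% and 5.31% of the kept cells in PBMCsec libraries 1 to 4 and 1.32%, 2.40%, 7.47% and 5.17% in vehicle libraries 1 to 4. The groups overlapped. The PBMCsec libraries averaged 3.33% (SD 1.36, n = 4) and the vehicle libraries 4.09% (SD 2.78, n = 4), less than the SD apart (exact two-sided permutation test, p = 0.657, with 0.0286 as the smallest value that 70 labellings allow). Under the relaxed filter hair-lineage cells made up 2.88%, 1.79%, 7.94% and 18.1% of the PBMCsec libraries and 0.931%, 6.53%, 13.9% and 17.98% of the vehicle libraries (exact permutation test, p = 0.8). In both groups the libraries numbered 3 and 4 had the higher shares under that filter. The shares of kept cells count red cell profiles as hair lineage. Of the 248 kept cells that nearest centroid placed in the lineage, 28 were in the red cell sub-group. In PBMCsec 1 the hair-lineage cluster held 21 kept cells, with a median of 1375 UMIs. Nearest centroid placed 9 kept cells of that library in the lineage.

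None of the genes passed the test for a difference between PBMCsec and vehicle. Counts summed per library over all kept cells were compared with edgeR's quasi-likelihood test over 13182 genes, which called 0% at an adjusted p under 0.05 in either direction (0 genes, with 260 higher and 75 lower at an unadjusted p under 0.05). DESeq2 called 10 genes, none of the set. Fitted log2 fold changes were negative for 7 of the 8 genes, which shared cells, and for 53.3% of all genes tested. The largest were Tchh at -3.02 (SE 1.09) and Krt75 at -2.69 (SE 1.05), both with an adjusted p of 1 by edgeR. These were 2 of 8 genes at an unadjusted p under 0.05 in the lower direction, which 0.569% of all tested genes reached (2.54% in either direction). Krt71 was at -2.08 (SE 1.26), Krt25 at -1.92 (SE 1.17), Krt27 at -1.84 (SE 1.18), Krt28 at -1.27 (SE 1.04), Krt73 at -0.72 (SE 1.10) and Krt35 at 0.21 (SE 1.39). Within libraries numbered 3 and 4 the fold change of Tchh was -3.51, and within those numbered 1 and 2 it was 0.33. Without vehicle 3, the library with the single cell of 2126 Tchh UMIs, it was -2.20 for Tchh and -1.86 for Krt75. Exact permutation tests of the CPM values gave p between 0.143 (Krt75) and 0.743 (Krt35) in 8 tests, and for each of the 8 genes the 2 groups overlapped.

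The low values after PBMCsec depended on the cells counted. Under the relaxed filter the fitted log2 fold change was -0.03 (SE 1.36) for Krt25, 0.07 (SE 1.58) for Krt71, -0.65 (SE 1.34) for Tchh and -0.62 (SE 0.63) for Krt75, all at an adjusted p of 0.9997 by edgeR. In epithelial cells kept by the filter of the study, Krt75 was at -2.58 (SE 0.69) and Tchh at -2.74 (SE 0.85), with an adjusted p of 0.9998 for both by edgeR. There too these 2 of 8 genes were at an unadjusted p under 0.05 and lower, as were 0.474% of the 10760 genes tested (1.59% in either direction). No gene passed the adjusted test (0%), 120 were higher and 51 lower before adjustment, and DESeq2 called 1 gene outside the set.

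Within hair-lineage cells of the relaxed filter, the fitted differences of the set's own inner root sheath and shaft keratins lay within 1 SE of 0. This did not hold for each shaft keratin outside the set, such as Krt32 at -1.46 (SE 0.98) and Krt36 at -0.57 (SE 0.42). The comparison within hair-lineage cells used 7 libraries, because vehicle 1 had only 8 such cells and was left out. UMIs of cells placed outside the lineage were not counted, and their part differed between libraries. For Tchh the lineage held 18899 of 24931 relaxed-filter UMIs in PBMCsec 4 and 17001 of 17440 in vehicle 4. In PBMCsec 3 it held 4294 of 5039, and in vehicle 3 it held 19530 of 23803. Log2 fold changes were 0.06 for Krt25 (SE 0.47), 0.12 for Krt71 (SE 0.63), 0.01 for Krt35 (SE 0.28), -0.12 for Krt28 (SE 0.31), -0.19 for Krt73 (SE 0.44) and -0.20 for Krt27 (SE 0.53). Tchh was at -0.92 (SE 0.86) and Krt75 at -1.19 (SE 0.40), with an adjusted p of 0.9999 by edgeR. Krt75 was 1 of the 8 genes at an unadjusted p under 0.05 and lower, as were 0.565% of the 11151 genes tested (2.01% in either direction). By edgeR 0% of genes were called, with 161 higher and 63 lower before adjustment, and DESeq2 called 2 outside the set. Krt75 in these cells was at 223, 107, 136 and 248 CPM in PBMCsec libraries 1 to 4 and at 717, 311 and 228 CPM in vehicle libraries 2 to 4. The groups overlapped, as they did for each of the 8 genes (1.86% of all genes had every PBMCsec library below every vehicle library), and without vehicle 2, where 66 cells were measured, the log2 fold change was -0.56. Tchh in these cells was at 1020, 5.62, 851 and 1931 CPM after PBMCsec and at 1307, 2384 and 1851 CPM after vehicle. PBMCsec 2, with 21 cells, set the low end, and without it the fold change of Tchh was -0.53. In Krt25 and Krt71 libraries 3 and 4 were still above the others within hair-lineage cells, as they were in 4 of the 8 genes and in 10.6% of all genes tested.

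**Figure D5:**
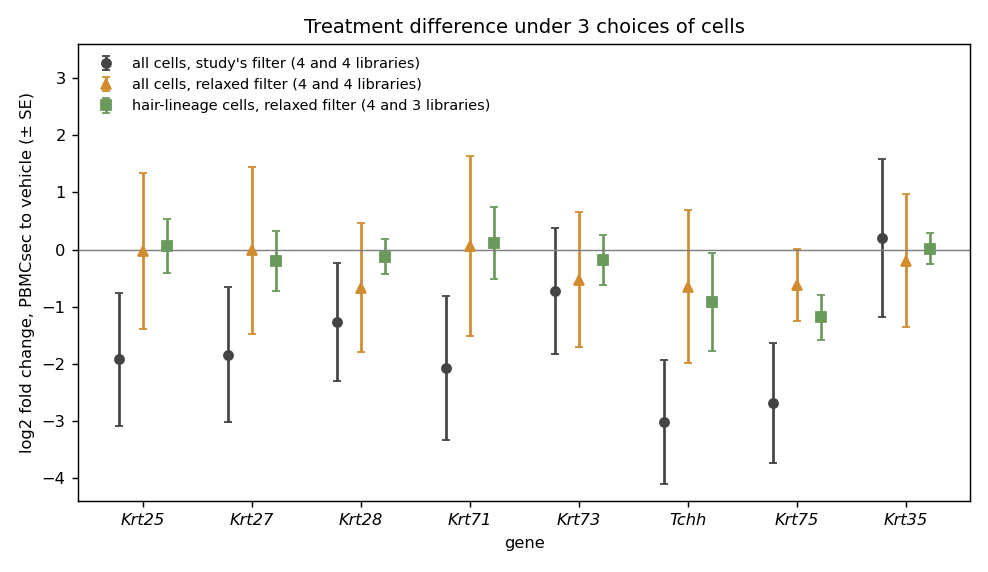
Log2 fold change from vehicle to PBMCsec with its standard error (y axis, edgeR) for each gene (x axis), over all cells under the filter of the study (circles), over all cells under the relaxed filter (triangles) and within hair-lineage cells under the relaxed filter (squares, without vehicle 1). Values for Krt25, Krt27 and Krt71 lay near -2 under the first filter and near 0 under the other choices, and no gene passed the adjusted threshold.

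Other follicle genes were read from the same comparison of kept cells. None of the lists held a called gene. The 8 genes of the set had a median log2 fold change of -1.88, beside -0.02 over all 13182 genes tested, of which 53.3% were below 0. Of 5 tested further inner root sheath genes (of 10 named) 5 were below 0 (median -0.61), with Gata3 at -0.61, Cux1, a nuclear factor of the sheath, at -0.38 and the transglutaminase Tgm3 at -0.72. Other hair shaft keratins were sparse, and 3 of 14 were tested (median 0.08), namely Krt32 at -0.52, Krt36 at 0.08 and Krt83 at 0.83. Of 15 matrix and differentiation regulators 14 were tested, with a median of -0.41, the vitamin D receptor gene Vdr at -0.21, Hoxc13, a homeobox factor of the shaft, at -0.49 and Ovol1 at -0.21. Non-keratin shaft genes (4 of 7 tested) had a median of -0.20, with the calcium-binding S100a3 at -1.22, Lpar6 at -0.24 and Selenbp1 at 0.57. Companion layer keratins (4 of 4 tested) had a median of -0.19, with Krt17 at -0.15, Krt6a at -0.56 and Krt16 at -0.23. Epidermal keratins (6 of 7 tested) had a median of -0.39, with Krt14 at -0.27, Krt5 at -0.37 and Krt10 at -0.50. Stem cell and outer root sheath genes (10 of 10 tested) had a median of 0.12, with Krt15 at -0.32, Postn at 0.26 and Cd34 at 0.42. Dermal papilla genes (9 of 10 tested) had a median of -0.23, with Ednrb at -0.49, the Wnt inhibitor Wif1 at 0.90 and the growth factor gene Fgf7 at 0.99. Cell division genes (10 of 10 tested) had a median of -0.22, with Mki67 at -0.39, Top2a at -0.21 and Pcna at -0.04. At an unadjusted p under 0.05, 1 companion layer keratin (Krt6b at 3.72) and 2 dermal papilla genes (Fgf7 and Fgf10, the latter at 1.68) were higher, and none of these other genes was lower. Krt6b and Fgf10 are named after their values were seen.

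Within hair-lineage cells of the relaxed filter, the same lists had medians of -0.15 for the set, -0.74 for other inner root sheath genes, -0.49 for other hair shaft keratins, -0.16 for matrix regulators and 0.02 for cell division genes, beside -0.0035 over all 11151 genes tested. Companion layer keratins (3 of 4 tested) were at 1.06, epidermal keratins (6 of 7) at 0.28, non-keratin shaft genes (7 of 7) at -0.02, stem cell and outer root sheath genes (8 of 10) at -0.08 and dermal papilla genes (2 of 10) at -0.35. None of the lists held a called gene. The largest values there among the named genes were Krt6a at 3.93 (SE 1.59), Krt14 at 1.92 (SE 0.62) and Krt32 at -1.46 (SE 0.98). At an unadjusted p under 0.05, Krt6a, Krt14 and Lhx2 (0.57, SE 0.20) were above 0, and the peptidylarginine deiminase genes Padi3 (-0.76, SE 0.22) and Padi4 (-1.05, SE 0.35) and the stem cell list's Fst (-1.78, SE 0.35) were below 0. Lhx2, Padi3, Padi4 and Fst are named after their values were seen.

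In kept hair-lineage cells 84.9% (95% Clopper-Pearson interval 80.2% to 88.9%, 242 of 285) had at least 1 UMI of the set. Red cell profiles were not taken out of these cells. By gene the share was 66.0% for Krt25, 59.6% for Krt28, 50.5% for Krt27, 32.3% for Krt71, 26.3% for Tchh, 24.9% for Krt75, 21.4% for Krt35 and 20% for Krt73. UMIs of the set were also found in other cell types, and whether they came from free RNA was not tested. Among 749 lymphoid cells (median 3313 UMIs per cell, against 8847 in the hair-lineage cluster) 3.6% had a Krt25 UMI and 5.87% a Tchh UMI, and among 1260 fibroblasts (median 9267 UMIs) the shares were 9.92% and 7.78%. With at least 3 UMIs the share for Krt25 was 50.9% in the hair-lineage cluster, 0.317% in fibroblasts and 0% in lymphoid cells, where 0 of 749 cells were found, which allows a share of up to 0.401%. In other epithelial cells (2364 cells) 7.32% had a Krt25 UMI and 0.169% had 3 or more. Of the same cells 15.2% had a Tchh UMI and 1.23% had 3 or more, and 12.1% had a Krt71 UMI and 0.381% had 3 or more. In the largest cluster that was follicle stem cell and outer root sheath-like (397 cells, median 9936 UMIs), 23.7% of cells had a Krt71 UMI (33.9 CPM), above the 7.46% of fibroblasts.

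Patterns most like those of the set were listed by Pearson correlation over groups of cells, which share libraries, as a description. Over all 35 clusters the correlation is largely set by the hair-lineage cluster alone. The genes closest to the summed inner root sheath members were the keratin-associated protein genes Krtap15 and Krtap3-3 (r = 0.94 each), Shh, Uox and Tchhl1 (0.94 each). Krt35 was closest to S100a3 (0.94), Krtap8-1 (0.94), Tm4sf4 (0.93), Krtap3-3 (0.93) and Esp6 (0.93), and Krt75 to Dlx4, Krtap3-3, Krt31, Kcnk16 and Sptssb (0.89 to 0.90). Over the 18 sub-groups the inner root sheath members were closest to Carmil1 (0.89), Arap2 (0.88), Pik3r3 (0.87), Pof1b (0.83) and Nras (0.82). There Krt35 was closest to AC103674.4 (0.92), Krt86 (0.92), Selenbp1 (0.91), Plce1 (0.91) and Car2 (0.90), and Krt75 to S100a6 (0.90), Thsd1 (0.88), Bmper (0.87), Tm4sf1 (0.86) and Kif3b (0.85).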

How the data were processed

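The files deposited by the authors hold unnormalized UMI counts, 1 matrix of genes by barcodes per library, made with Cell Ranger on mm10 (version 3.0.2 in the submitters' processing notes). Following the study, Gm42418, Gm17056 and Gm26917 were dropped. Seurat 5.3.0 was used to integrate the libraries and to cluster kept cells (2000 variable features, 30 dimensions, resolution 1). Clusters were named by at least 3 fixed markers found in 25% of cells with 2-fold higher CPM (prior 10 CPM). Cells of the relaxed filter were placed by nearest centroid, which returned 87.7% of kept cells to their own cluster, and hair-lineage cells were divided with scanpy 1.11.5 (20 components, resolution 0.8). The main test used counts summed per library and the quasi-likelihood fit of edgeR 4.0.16 in R 4.3.3, after filterByExpr and TMM scaling, with p-values adjusted over all genes by Benjamini-Hochberg. The script was tested on simulated data. The SE of an edgeR log2 fold change was its size divided by the square root of the F statistic. A value within 1 SE of 0 thus means an F under 1. DESeq2 1.42.0 was the alternative. Single values were compared with exact permutation tests (scipy 1.17.1). Scrublet marked 18 kept cells (0.293%), a rate at which the caller has not worked, and an alternative left out the 249 cells with the highest scores.

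The genes, gene lists and markers were chosen with earlier results of these data known. The text names all members, the 3 genes of each list with the highest mean CPM among those tested, and the 5 genes most like each member group. Sub-groups, the hair-lineage comparison and thresholds of 5 and 100 UMIs were set after the cells were seen. Equal library numbers were checked as pairs. Over kept cells the deviations from the group mean correlated at 0.29, 0.30, 0.47 and 0.57 for numbers 1 to 4. In epithelial and hair-lineage cells not every correlation was over 0.1. Unlike numbers were not correlated in this way, so whether the numbers pair the libraries was not tested. Whether libraries of 1 group are separate animals is not given, so p-values measure the spread between these libraries. PCR duplicates are removed by UMIs, and intervals and limits cover counting error only.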

Additional observations from a re-analysis of the deposited data

Results flagged for a closer look

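Of 44 groups of 4 libraries examined for a value far from the others (Dixon's test, 95% level), 2 were outlying, and chance gives about 1 in 20. Both concerned Krt75 under the relaxed filter. In PBMCsec 4, Krt75 was at 131 CPM and the nearest other PBMCsec library at 43.4 CPM. In vehicle 1, Krt75 was at 19.9 CPM and the nearest other vehicle library at 122.5 CPM.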

How the results depend on the processing

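The comparisons are limited by 4 libraries a group, by 2 to 124 kept hair-lineage cells per library and by the few cells that carry most UMIs. With the library number as a replicate block edgeR called 0 genes in each of the 3 comparisons, so the block changed no call. With it, Tchh was at -2.03 and Krt75 at -2.63 over all kept cells. Under every alternative edgeR called 0 genes, and DESeq2 called 10 over all kept cells, 1 in epithelial cells and 2 in hair-lineage cells. The share of hair-lineage cells with a UMI of the set was 69.8% with at least 3 UMIs and 68.8% after thinning to 1000 UMIs. The difference in the share of hair-lineage cells (PBMCsec minus vehicle, in percentage points) turned to 0.044 of epithelial cells and to 0.75 in libraries numbered 1 and 2, and leaving out 1 library gave -1.69 to 0.36, the latter without vehicle 3. Over all kept cells, libraries numbered 1 and 2 gave 0.77 for Krt71 and 0.33 for Tchh, and in epithelial cells 0.049 for Krt28, 1.03 for Krt71 and 0.47 for Tchh. The relaxed filter gave 0.065 for Krt71 and -0.20 for Krt35, and all barcodes gave 0.068 and -0.21. Leaving out 1 library gave -0.78 to 1.02 for Krt35 over all kept cells and -0.32 to 1.06 (1.065) in epithelial cells.

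Within hair-lineage cells, values near 0 changed sign. Krt25 was at -0.071 with the block (libraries 2 to 4), Krt27 at 0.032 in libraries numbered 3 and 4, Krt28 at 0.055 and Krt73 at 0.0073 with the number pair (1 and 2 against 3 and 4) as a term, chosen after seeing the data, and Krt35 at -0.010 without the filter on low counts. Leaving out 1 library gave -0.35 to 0.41 for Krt25, -0.89 to 0.20 (0.205) for Krt27, -0.45 to 0.23 for Krt28, -0.43 to 0.71 for Krt71, -0.49 to 0.11 for Krt73 and -0.18 to 0.18 for Krt35. The causes were not tested. Of the values for single genes, 313 kept their direction and their side of the threshold and 31 changed sign. Libraries numbered 1 and 2 alone could not be fitted in hair-lineage cells, and over all kept cells not for Krt27, Krt28, Krt35 and Krt75.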
